A study of Mus musculus with 9 samples.

Results

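RNA-Seq of mouse pulmonary endothelial cells (ECs) was compared with RNA-Seq of control MC3T3-E1 osteoblasts. The sample titles gave 3 libraries of each group, which are 6 of the 9 libraries of the series. The other 3 libraries, of MC3T3-E1 cells given SB216763, entered only an alternative fit. MC3T3-E1 is a clonal osteoblast line from mouse skull bone, and its cells carry the treatment entry "control" here. The protocol text of the labels, with its SB216763 treatment, is repeated for every sample, so what the controls received in its place is not given. The pulmonary ECs carry the treatment entry "none" and were isolated by FACS according to the study. The antigens used for that sort, the strain, age, and sex of the source mice, any time in culture of the ECs, and the time in culture of the controls are not given in the sources used here. An established line of bone origin was therefore set against sorted cells from lung, and differences of cell type, tissue, culture, and strain cannot be told apart. Nothing states that replicates came from separate cultures or animals, so the p-values measure the spread between these libraries, which may be technical.

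ECs line the blood vessels, regulate the passage of cells and solutes, and keep the blood from clotting. They are held together by VE-cadherin and depend on receptors for VEGF and angiopoietins. ETS, SOX, and GATA family transcription factors sustain their expression program. Osteoblasts are the mesenchymal cells that build bone. They depend on Runx2 and osterix and secrete a matrix of type I collagen that mineralizes. In the lung, capillary ECs comprise general capillary cells and aerocytes, which take part in gas exchange.

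The control libraries held 68946333, 59125904, and 30990107 counts, and the EC libraries 43013521, 32523234, and 42878370. Values are means of n = 3 libraries, or the 3 libraries in order of replicate number, as CPM, read counts scaled by the TMM-adjusted library size. Where a pair of means follows a gene without further words, the osteoblast mean comes first. Over the named genes at 10 CPM or more, the SD was a median of 4.18% of the mean in osteoblasts and 2.87% in ECs. At these depths 3 counts corresponded to between 0.0459 and 0.103 CPM. Fewer than 3 counts in a library was taken as the floor, which covers counting error only. Log2 fold changes are of ECs over osteoblasts and positive where ECs are higher. A gene was called where the quasi-likelihood test of edgeR gave an FDR (Benjamini-Hochberg) under 0.01 and the absolute log2 fold change reached 2. The SE printed with a log2 fold change is its size over the square root of the F of that test. It understates the error where the lower group has few counts, as for Cdh5, Sp7, Erg, Twist1, Pth1r, Lox, and Mtap. Of 15342 genes tested, 2141 (14.0%) were called higher in ECs and 1498 (9.76%) higher in osteoblasts, 23.7% in all, and 11703 were not called. The shares of 14.0% and 9.76% are the background for the counts of called genes in the lists and families below. The median log2 fold change over all genes tested was 0.00. The genes called higher in ECs held between 14.5% and 14.6% of all counts in the EC libraries and between 0.934% and 0.993% in the osteoblast libraries. The genes called higher in osteoblasts held between 16.2% and 18.2% in the osteoblast libraries and between 0.883% and 0.885% in the EC libraries. Control replicate 2 stood apart from the other controls in transcript length. Its 1043 expressed genes with over 10 kb of exon had a median log2 ratio to the other control libraries of -0.18, and its 914 genes under 2 kb one of 0.08, where the EC libraries lay between -0.03 and 0.04 for genes of either length. Without that library 2285 genes were called higher in ECs and 1502 in osteoblasts. Leaving out control replicate 1 gave 2327 and 1525, and leaving out control replicate 3 gave 2338 and 1533. The expression filter was rerun in each of these fits, so the genes tested can differ from the 15342.

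**Figure D1:**
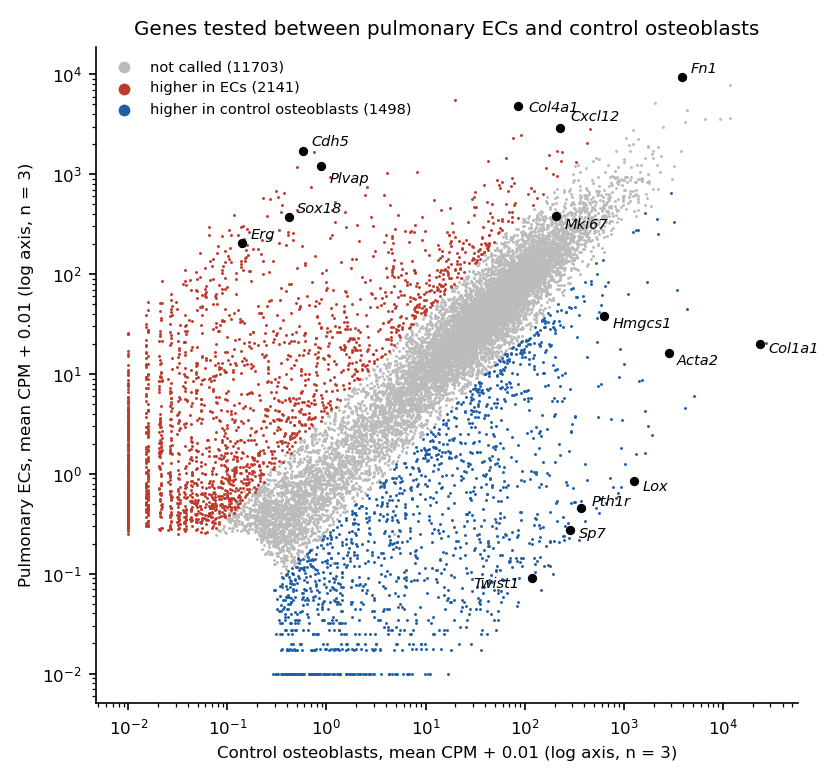
Mean CPM of the 15342 genes tested in control osteoblasts (x axis) against pulmonary ECs (y axis), both on log axes after adding 0.01, with n = 3 libraries in each group. Red points are the 2141 genes called higher in ECs, blue points the 1498 called higher in osteoblasts, gray points the 11703 genes not called, and black points are genes named in the text.

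Both labels held against their defining markers. Cdh5, which encodes VE-cadherin (chromosome 8, 104101625 to 104144511 on GRCm38, GENCODE M21), was at 0.475, 0.72, and 0.514 CPM in the control osteoblasts and 1711, 1694, and 1772 CPM in the ECs. The groups were far apart, with a log2 fold change estimated at 11.55 ± 0.099 (SE) and an adjusted p of 1.21e-15 (edgeR quasi-likelihood test, Benjamini-Hochberg). Pecam1, the CD31 gene (chromosome 11, 106654217 to 106750628), was at 0.536, 0.86, and 0.822 CPM in the osteoblasts and 1673, 1694, and 1699.5 CPM in the ECs, and Kdr, the main VEGF receptor gene (chromosome 5, 75932827 to 75978458), at 0.444, 0.527, and 0.514 and 1159, 1183, and 1208 CPM. In the other direction, Sp7, the osterix gene (chromosome 15, 102356606 to 102367182), was at 302, 282, and 285 CPM in the osteoblasts and 0.22, 0.233, and 0.336 CPM in the ECs, for a log2 fold change estimated at -10.08 ± 0.0903 (SE) and an adjusted p of 1.48e-15 (edgeR quasi-likelihood test, Benjamini-Hochberg). Col1a1, which encodes the α1 chain of type I collagen (chromosome 11, 94936224 to 94953042), was at 27204, 18782, and 25716 CPM in the osteoblasts and 15.3, 23.8, and 20.4 CPM in the ECs. No library of either group overlapped with the other for these 5 genes. Of the 15342 genes tested, 6568 were likewise higher in ECs without overlap and 6475 higher in osteoblasts. Control replicate 2 had the lowest Col1a1 value of its group.

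Markers of other cells were at or near 0 in the ECs for some lists and not for others. Summed over 12 pericyte and smooth muscle markers, the level was 3109 to 3181 CPM in the osteoblast libraries and 26.6 to 28.3 CPM in the EC libraries. Over 17 lung epithelial markers it was 1.85 to 2.44 CPM in the osteoblast libraries and 1.87 to 2.89 CPM in the EC libraries. Sftpa1, Sftpd, Scgb3a2, and Epcam had 0 counts in all 6 libraries, and Sftpc and Scgb1a1 had 0 counts in the ECs. Over 18 blood cell markers the sum was 26.6 to 27.6 CPM in the osteoblast libraries and 81.7 to 86.1 CPM in the EC libraries. Ptprc, the pan-leukocyte CD45 gene, was at 0.0878 CPM in the ECs, Spi1 at 0.0715 CPM, and Cd3e at 0. Of this list, Pf4, the platelet factor 4 gene, reached 25.7 ± 0.926 CPM in ECs (SD, n = 3), Cd68 44.8 ± 1.05 CPM, and Ppbp 1.5 ± 0.0892 CPM. Lyz2, a lysozyme gene of myeloid cells, was at 25.3 and 10.05 CPM and was not called. Over 13 lung fibroblast and mesothelial markers the sum was 50871 to 67226 CPM in the osteoblast libraries and 219 to 236 CPM in the EC libraries. Msln, which encodes mesothelin, was at 117, 112, and 118 CPM in the ECs and 0.0459, 0.0351, and 0.0685 CPM in the osteoblasts, while Upk3b and Wt1, also mesothelial, were at 0.172 and 0.00972 CPM in the ECs. The other members at 10 CPM or more in ECs, Npnt, Col1a2, Col1a1, and Pdgfra, were at 45.1, 20.3, 19.8, and 17.5 CPM there and at 4344, 27129.6, 23900.5, and 32.4 CPM in osteoblasts. The part of other cells in the EC profile was not tested. In bulk samples, fewer cells of a type and less RNA per cell cannot be told apart.

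Most transcription factors of endothelium were higher in ECs. Of 33 listed factors, 31 were tested, 24 were called higher in ECs and 2 higher in osteoblasts, against 14.0% and 9.76% of all genes tested. Their median log2 fold change was 4.22 (3.74 with genes under 3 counts in every library of a group set at their bound). Erg, an ETS factor that maintains endothelial identity (chromosome 16, 95359169 to 95586593), was at 0.168, 0.193, and 0.0343 CPM in the osteoblasts and 202, 210.2, and 203 CPM in the ECs, for a log2 fold change estimated at 10.37 ± 0.12 (SE) and an adjusted p of 6.07e-15 (edgeR quasi-likelihood test, Benjamini-Hochberg). Fli1, a related ETS factor, was present in both groups, at 7.82 ± 0.141 CPM in osteoblasts and 104 ± 2.76 CPM in ECs (SD, n = 3), and its log2 fold change was 3.74. Ets1 and Elk3 were also expressed in osteoblasts, at 35.1 and 59.7 CPM, and were higher in ECs with log2 fold changes of 2.03 and 2.51. Without control replicate 1, Ets1 had a log2 fold change of 1.96 and was not called. The libraries of the groups did not overlap for any of these 4 genes, as for most genes tested. Over the 17 ETS family genes tested, 5 were higher in ECs and 0 in osteoblasts.

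The SOX factors split by subgroup. Sox7, Sox17, and Sox18, which act redundantly in vessel formation, were at 75.4, 102, and 374 CPM in ECs and at 0.0506, 0.113, and 0.404 CPM in osteoblasts. Sox9 and Sox11, factors of skeletal progenitors, were at 45.3 and 66.6 CPM in osteoblasts and at 0.0878 and 0.0542 CPM in ECs, and Sox6 was at 83.3 and 9.89 CPM. Sox13 was called higher in ECs, at 4.79 CPM in osteoblasts and 137 CPM in ECs. The blood and endothelial factors Tal1, Lyl1, Lmo2, and Gata2, which cooperate in a complex, were all called higher in ECs. Tal1 was at 0.889 ± 0.0705 CPM in osteoblasts and 102 ± 2.3 CPM in ECs (SD, n = 3), and Gata2 at 4.53 ± 0.402 and 97.02 ± 3.81 CPM. Epas1, the hypoxia-inducible factor 2α gene, was at 0.735, 0.685, and 0.651 CPM in osteoblasts and 744, 754, and 756 CPM in ECs. Bcl6b and Mecom were at 301 and 144 CPM in ECs and at 0.133 and 0.139 CPM in osteoblasts.

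Several endothelial factors were not called, or were higher in osteoblasts. Klf2, a factor induced by blood flow, was at 45.5, 48.2, and 42.7 CPM in osteoblasts and 163, 156, and 167 CPM in ECs, and its log2 fold change of 1.83 stayed under the threshold. Klf4 was at 175 and 113 CPM and Nfatc1 at 61.2 and 15.7 CPM in osteoblasts and ECs, neither called. Foxf1, a factor of lung capillaries, was at 42.5, 42.1, and 41.9 CPM in osteoblasts and 56.5, 56.8, and 55.1 CPM in ECs, a log2 fold change of 0.41. Tbx3 and Meox1 had 0 counts in every EC library and were at 5.96 and 1.37 CPM in osteoblasts. Their folds against the floor were at least 81.02 and 18.6. Meox2 and Etv2 were not expressed at a level that could be tested.

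**Figure D2:**
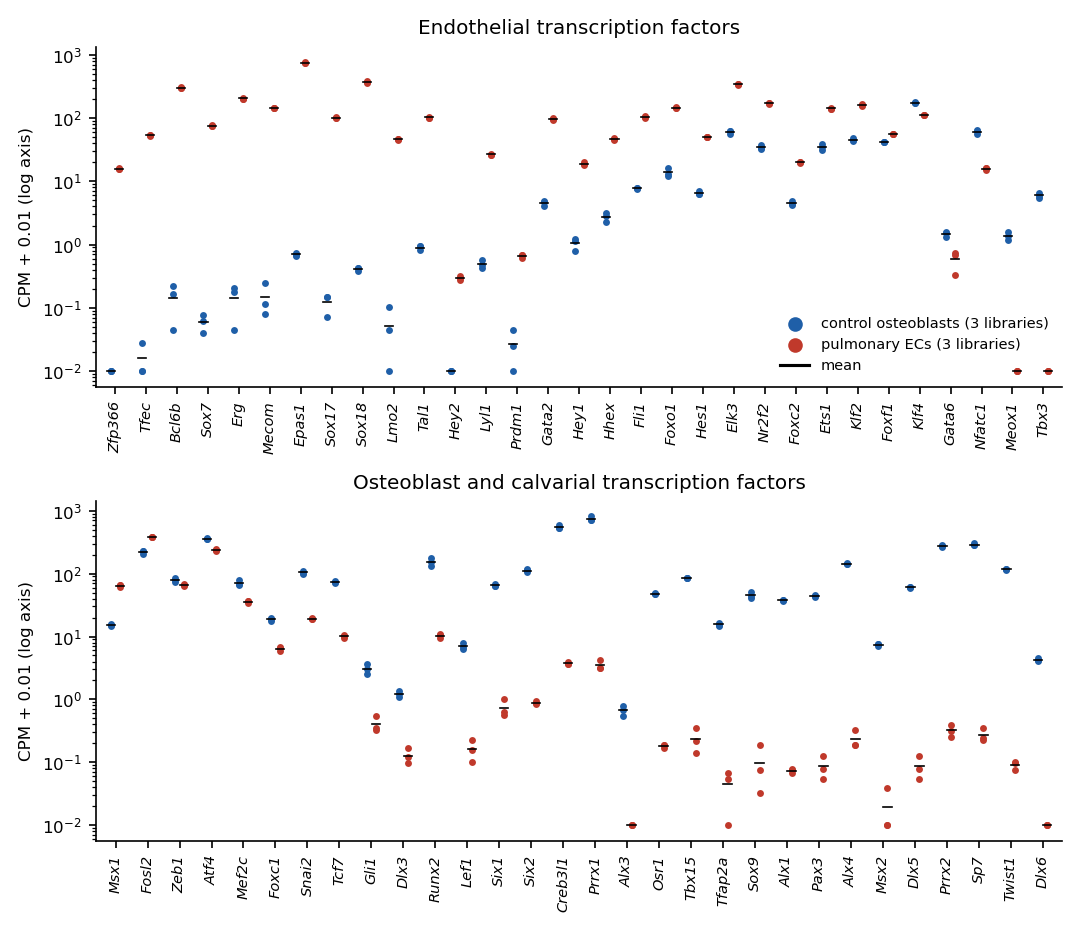
CPM + 0.01 (log axis) of the endothelial (top) and osteoblast (bottom) transcription factors (31 endothelial and 30 osteoblast factors drawn), ordered by log2 fold change. Each point is 1 library, blue for control osteoblasts and red for pulmonary ECs, and the short bar is the mean of n = 3. The 24 endothelial factors higher in ECs stand at the left of the top panel and the osteoblast factors called higher in osteoblasts at the right of the bottom panel.

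For 3 endothelial surface genes, the 250 bases before the RefSeq start (GRCm38.p6) are shown because they hold the hexamer CAGGAA or its complement TTCCTG, which contains the GGAA core bound by ETS factors such as Erg. They were chosen after their values were seen. Capitals mark the hexamer, and all 3 stretches are on the plus strand, written 5′ to 3′. Tek, the angiopoietin receptor gene, lies at chr4:94739039-94739288, Emcn, the endomucin gene, at chr3:137340828-137341077, and Cd34, a surface sialomucin gene, at chr1:194938571-194938820.
Tek: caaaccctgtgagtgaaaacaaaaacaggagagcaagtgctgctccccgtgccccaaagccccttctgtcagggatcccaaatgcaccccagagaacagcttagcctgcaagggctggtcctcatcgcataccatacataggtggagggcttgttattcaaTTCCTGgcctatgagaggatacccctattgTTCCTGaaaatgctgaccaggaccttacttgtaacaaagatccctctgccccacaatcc
Emcn: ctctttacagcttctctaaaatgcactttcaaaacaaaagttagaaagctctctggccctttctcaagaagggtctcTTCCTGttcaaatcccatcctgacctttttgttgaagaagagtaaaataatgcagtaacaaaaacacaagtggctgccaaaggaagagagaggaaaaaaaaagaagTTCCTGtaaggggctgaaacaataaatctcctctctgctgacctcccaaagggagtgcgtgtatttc
Cd34: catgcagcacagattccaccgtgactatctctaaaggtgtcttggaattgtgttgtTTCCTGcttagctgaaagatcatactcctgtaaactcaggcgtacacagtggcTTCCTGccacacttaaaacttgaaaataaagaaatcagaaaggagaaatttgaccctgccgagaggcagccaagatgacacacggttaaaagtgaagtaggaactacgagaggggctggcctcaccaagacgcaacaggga
Each holds the hexamer 2 times, in the TTCCTG orientation. Searched on both strands, it was present in 25.7% of all 32851 promoters of this length in the table, in 28.3% of 1805 promoters of genes called higher in ECs, in 23.7% of 1298 promoters of genes called higher in osteoblasts, and in 21.9% of 10685 promoters of genes not called. Of the 101 genes of the endothelial transcription factor, receptor, and junction lists, 59 had a promoter in the table, and 23 had the hexamer in at least 1 promoter. These are counts of genes, which can have several promoters, so they are not comparable with the shares of promoters. The 1805 promoters of genes higher in ECs, for example, belonged to 1376 genes. A match is a description of the letters, not of binding. Tek was at 0.0612, 0.0878, and 0.0685 CPM in the osteoblasts and 76.3, 77.4, and 77.7 CPM in the ECs. Emcn was at 0.199, 0.211, and 0.24 CPM in the osteoblasts and 576, 583, and 583 CPM in the ECs. Cd34 was present in both, at 48.9, 54.9, and 54.4 and 880.4, 875, and 895 CPM, a log2 fold change of 4.07.

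Most osteoblast and calvarial factors were higher in osteoblasts. Of 38 listed, 31 were tested, 25 were higher in osteoblasts and 1 higher in ECs, with a median log2 fold change of -7.22 (-6.51 with genes under 3 counts in every library of a group set at their bound). Twist1, which acts in mesenchyme of the skull (chromosome 12, 33957671 to 33959829), was at 119, 119, and 114 CPM in osteoblasts and 0.0661, 0.0875, and 0.0895 CPM in ECs, for a log2 fold change estimated at -10.47 ± 0.0922 (SE) and an adjusted p of 1.32e-15 (edgeR quasi-likelihood test, Benjamini-Hochberg). Its SE is too small, with so few counts in the ECs. Prrx1 and Prrx2, homeobox genes of limb and skull mesenchyme, were at 749 and 275 CPM in osteoblasts and at 3.49 and 0.311 CPM in ECs. Dlx5, Alx4, Pax3, and Sox9 had log2 fold changes of -9.66, -9.36, -9.19, and -9.09. Runx2, the master regulator of bone formation, was at 175, 132, and 155 CPM in osteoblasts and 10.6, 10.9, and 9.47 CPM in ECs. Its log2 fold change was -3.90. The antisense gene Runx2os1 overlaps it, so its counts are uncertain where strand was not used. Snai2 and Tcf7 were still at 19.2 and 10.1 CPM in ECs. Fosl2, Zeb1, Atf4, Mef2c, and Foxc1 were not called. Msx1, a homeobox gene of the skull, was the exception, at 15.97, 15.5, and 14.7 CPM in osteoblasts and 65.6, 60.3, and 65.3 CPM in ECs. Its log2 fold change of 2.05 lay just past the threshold.

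Hox genes, which record position along the body axis, differed by cluster. Of 39 genes 24 were tested, 12 were higher in ECs and 6 higher in osteoblasts, against 14.0% and 9.76% of all genes tested. In the Hoxd cluster, Hoxd8 was at 0.0459, 0.105, and 0.137 CPM in osteoblasts and 182, 189.6, and 171 CPM in ECs, and Hoxd9 and Hoxd10 were at 44.4 and 15.9 CPM in ECs and at 0.0212 and 0.0224 CPM in osteoblasts. Their neighbors Hoxd11, Hoxd12, and Hoxd13 were at or under 0.0194 CPM in both groups. In the Hoxb cluster, Hoxb4 to Hoxb8 were each called higher in ECs, from 6.08 CPM for Hoxb5 to 56.3 CPM for Hoxb8, whereas Hoxb9 was higher in osteoblasts (34.3 and 8.3 CPM; a log2 fold change of -2.05, and of -1.91 with scaling by library size alone, where it was not called) and Hoxb13 was at 1.84 CPM in osteoblasts and 0 in ECs. In the Hoxa cluster Hoxa7 was higher in ECs (1.19 and 13.5 CPM) and Hoxa10 in osteoblasts (17.4 and 1.46 CPM), and Hoxa5, Hoxa6, and Hoxa3 were not called. The Hoxc genes stayed at or under 0.532 CPM, the mean of Hoxc4 in osteoblasts. Nkx2-3 and Pax2, homeobox factors of spleen and gut vessels and of kidney, were at 21.3, 21.2, and 21.1 CPM and 14.6, 14.5, and 14.9 CPM in ECs and at 0.0102 and 0.0219 CPM in osteoblasts.

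**Figure D3:**
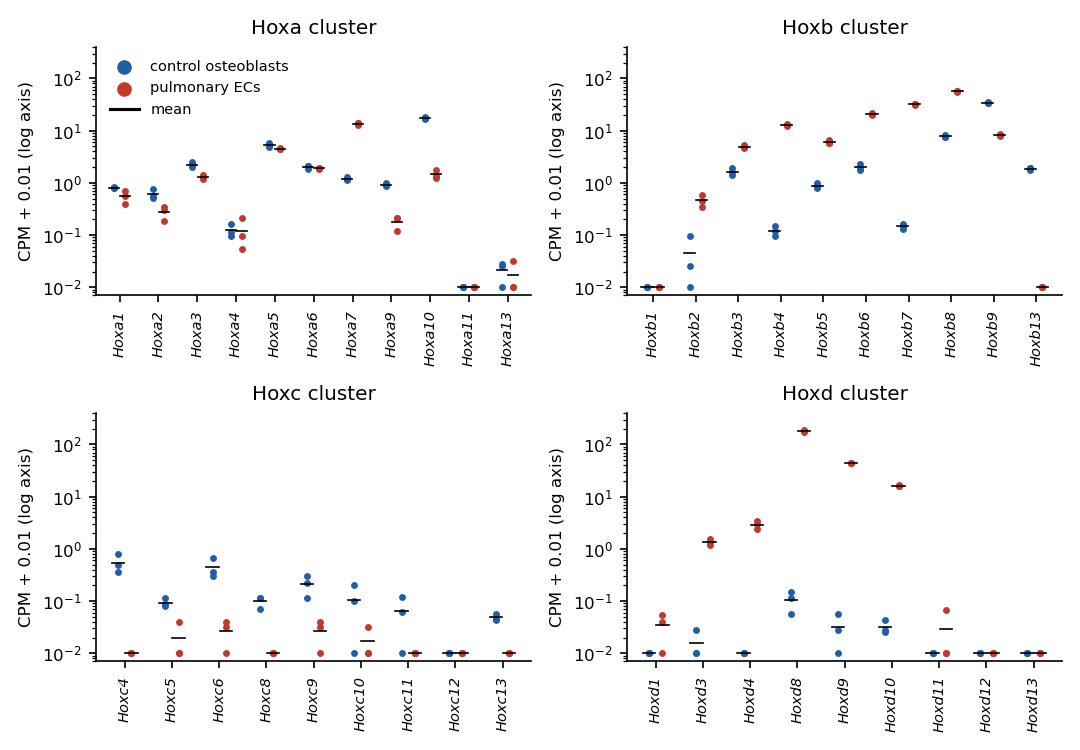
CPM + 0.01 (log axis) of each Hox gene in the 4 clusters, ordered by paralog number. Each point is 1 library, blue for control osteoblasts and red for pulmonary ECs, and the short bar is the mean of n = 3. Hoxd8, Hoxd9, and Hoxd10 are seen in the ECs, and Hoxc genes stay under 1 CPM in every library.

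Most endothelial surface receptors were also higher in ECs. Of 37 endothelial receptors tested (38 listed), 25 were higher in ECs and 3 in osteoblasts, with a median log2 fold change of 7.05 (6.39 with genes under 3 counts in every library of a group set at their bound). Tie1 and Tek, the angiopoietin receptor family, and Flt4, the VEGF-C receptor gene, were at 653, 77.1, and 163 CPM in ECs and at 0.361, 0.0725, and 0.0423 CPM in osteoblasts. Acvrl1 and Eng, which encode the BMP9 receptor ALK1 and its co-receptor endoglin, were at 0.297 ± 0.0562 and 4.41 ± 0.247 CPM in osteoblasts and at 679 ± 17.6 and 489.7 ± 20.1 CPM in ECs (SD, n = 3). Id1, Smad7, and Id2, targets of BMP signaling, were also higher in ECs, with log2 fold changes of 5.43, 2.19, and 3.36, whereas the targets Id3 and Smad6 had log2 fold changes of 0.14 and 0.74 and were not called. The adhesion receptors Adgrf5 and Adgrl4 were at 1021 and 246 CPM in ECs and at 4.1 and 0.117 CPM in osteoblasts. The VEGF receptor Flt1 and the co-receptors Nrp1 and Nrp2 were expressed in both groups and were not called. Flt1 was at 67.8, 52.8, and 69.0 CPM in osteoblasts and 190.4, 199, and 202 CPM in ECs, a log2 fold change of 1.64, and Nrp2 at 1413, 1058, and 1337 CPM in osteoblasts and 424, 424, and 427 CPM in ECs, a log2 fold change of -1.58. S1pr1 and Thbd, the sphingosine-1-phosphate receptor and thrombomodulin genes, were at 192 and 665 CPM in osteoblasts and 498 and 507 CPM in ECs, and neither was called. Lifr, Tnfrsf1b, and Cxcr4 were higher in osteoblasts, with Cxcr4 at 0.74 CPM there and 0 counts in every EC library.

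On the osteoblast side, 18 of 33 mesenchymal receptors tested were higher in osteoblasts and 0 in ECs, with a median log2 fold change of -2.31 (-2.16 with genes under 3 counts in every library of a group set at their bound). Pth1r, the parathyroid hormone receptor gene (chromosome 9, 110722085 to 110747145), was at 376, 371, and 375 CPM in osteoblasts and 0.418, 0.437, and 0.47 CPM in ECs, for a log2 fold change estimated at -9.72 ± 0.0669 (SE) and an adjusted p of 5.75e-16 (edgeR quasi-likelihood test, Benjamini-Hochberg). The FGF receptors had log2 fold changes of -2.16 for Fgfr1, -10.42 for Fgfr2, and -4.39 for Fgfr3, and Fgfr1 was at 139 CPM in ECs. Tnfrsf19 and Cdh11, a cadherin of mesenchyme, were at 775 and 947 CPM in osteoblasts and 0.727 and 1.79 CPM in ECs. Pdgfrb was higher in osteoblasts (247 against 5.76 CPM), whereas Pdgfra was not called (32.4 and 17.5 CPM). The type I BMP receptor Bmpr1a was at 209, 203, and 204 CPM in osteoblasts and 0.485, 0.642, and 0.358 CPM in ECs. Bmpr2 and Acvr1 were not called, and Bmpr1b was at most at 0.00585 CPM in either group.

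Junction and surface antigen genes were nearly all higher in ECs. Of 30 genes tested, 27 were higher in ECs and 0 in osteoblasts, with a median log2 fold change of 9.51 (9.43 with genes under 3 counts in every library of a group set at their bound). F11r, Cldn5, Esam, Ocln, and Icam2, which encode tight junction and adhesion proteins, had log2 fold changes between 10.39 and 12.12. Ocln had only 1 count over the osteoblast libraries, so its value depends on the small count that edgeR adds. Against the floor it was at least 187-fold higher in ECs. Selp and Sele, the P-selectin and E-selectin genes, were at 487, 495, and 508 CPM and 56.4, 55.7, and 54.3 CPM in ECs and at 0.344 and 0.0168 CPM in osteoblasts. Vcam1 was expressed in both groups (68.05 and 342 CPM) and was called higher in ECs. Icam1 was low in ECs, at 2.72 ± 0.181 CPM (SD, n = 3). Tjp1, Ptprm, and Gjc1 were not called. Among 10 genes of caveolae and fenestral diaphragms, Plvap (0.876 and 1209 CPM), Cav1 (178 and 1549 CPM), Cavin2 (17.5 and 458 CPM), and Ehd4 were higher in ECs, and 0 were higher in osteoblasts. Cavin1, the caveola coat gene, was at 1182 and 937 CPM. Shank3, She, Fgd5, and Arhgef15 were at 294, 279, 151, and 136 CPM in ECs and at or under 0.217 CPM in osteoblasts, whereas Krit1, Pdcd10, and Ccm2, the cerebral cavernous malformation genes, had log2 fold changes of 0.34, 0.02, and -0.50 and were not called.

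Integrins, the receptors for matrix, were called in both directions. Of 27 tested, 10 were higher in ECs and 5 in osteoblasts, against 14.0% and 9.76% of all genes tested. Itga4 and Itgb4 were at 0.0841 and 1.54 CPM in osteoblasts and at 91.98 and 416 CPM in ECs, and Itga6, a laminin receptor subunit, was at 9.29 and 372 CPM. Itga11, a collagen receptor subunit, was at 197 and 0.204 CPM, and Itga8 at 56.5 and 2.04 CPM. Among 56 cadherins and protocadherins tested, 22 were higher in ECs and 14 in osteoblasts. Among 43 receptor tyrosine kinases the numbers were 13 and 15, with a median log2 fold change of -0.17.

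**Figure D4:**
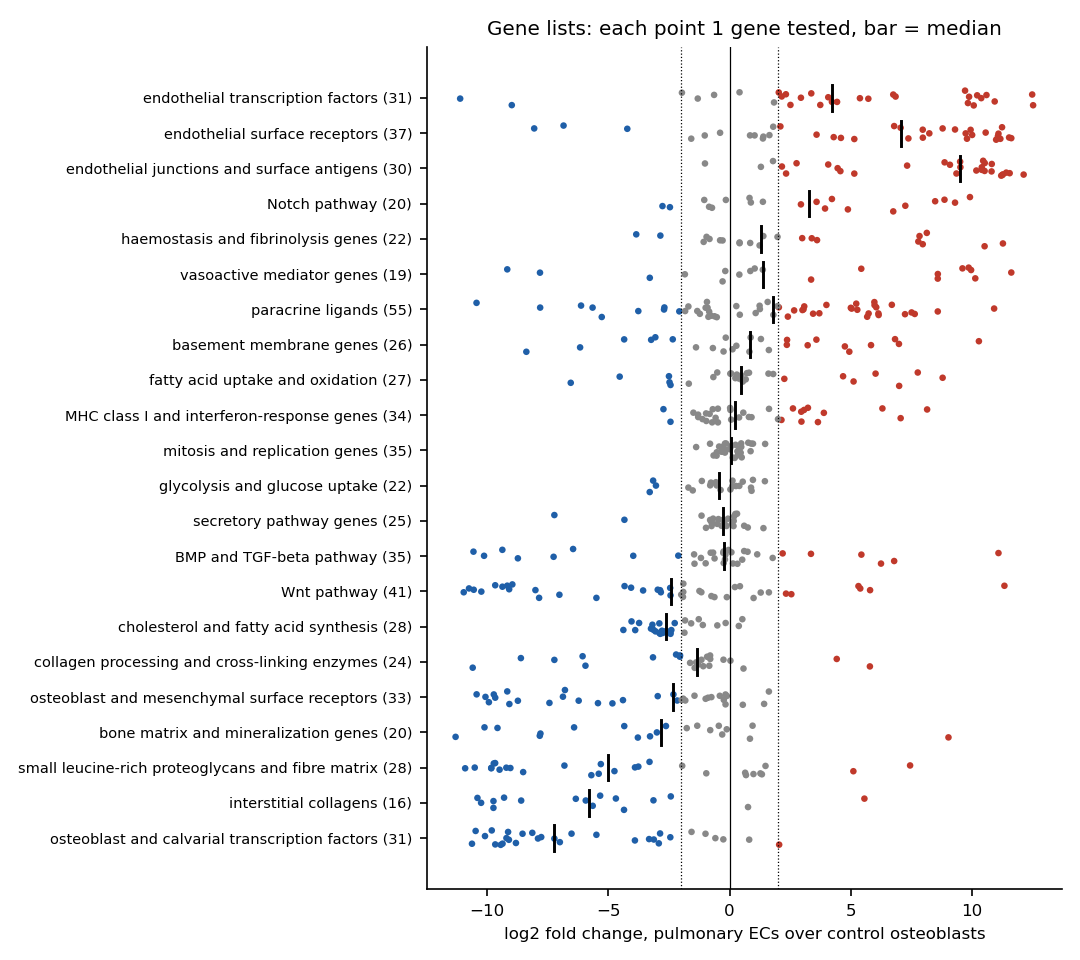
Log2 fold change of ECs over control osteoblasts (x axis) for each gene tested in 22 gene lists (number tested in brackets). Red points were called higher in ECs, blue points higher in osteoblasts, and gray points were not called, the black bar is the median of the list, dotted lines stand at -2 and 2, and the thin line is the median of all genes tested. The junction list has the highest median of the lists drawn and the osteoblast transcription factors the lowest, and the mitosis genes lie between the dotted lines.

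Most genes of the fibrillar matrix were higher in osteoblasts. Of 16 interstitial collagens tested, 14 were higher in osteoblasts and 1, Col14a1, was higher in ECs at 1.68 ± 0.334 CPM. The median log2 fold change was -5.78 (-5.49 with genes under 3 counts in every library of a group set at their bound). Per kilobase of exon, Col1a1 was at 3642 CPM per kb in osteoblasts, behind only Eef1a1 (4772 CPM per kb) among 12980 protein-coding genes tested, and at 3.02 CPM per kb in ECs. Col1a2 was at 29798, 22983, and 28608 CPM in osteoblasts and 15.5, 25.1, and 20.2 CPM in ECs, and both type I collagen genes together took between 4.02% and 5.40% of the counts of the osteoblast libraries. Col3a1 was at 5065 CPM in osteoblasts and 5.997 CPM in ECs. Col5a1, which nucleates fibrils, was called higher in osteoblasts but still present in ECs, at 252 ± 7.23 CPM against 2214 ± 381 CPM in osteoblasts (SD, n = 3).

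In the basement membrane list, related chains were called in opposite directions. Of 26 genes tested, 10 were higher in ECs and 6 in osteoblasts, with a median log2 fold change of 0.85. Col4a1, which encodes the main collagen IV chain (chromosome 8, 11198423 to 11312826), was at 92.8, 70.1, and 91.8 CPM in osteoblasts and 4745, 4661, and 5085 CPM in ECs, for a log2 fold change estimated at 5.83 ± 0.11 (SE) and an adjusted p of 4.27e-13 (edgeR quasi-likelihood test, Benjamini-Hochberg). Its partner Col4a2 was at 92.0 and 2481 CPM. Another collagen IV pair, Col4a5 and Col4a6, was higher in osteoblasts, at 185 and 27.4 CPM against 19.7 and 0.401 CPM in ECs. The nidogens, which link laminin to collagen IV, did so too. Nid1 was at 9.46, 7.04, and 8.26 CPM in osteoblasts and 1013, 1053, and 1074 CPM in ECs, and Nid2 at 443, 355, and 432 CPM in osteoblasts and 0.991, 1.37, and 1.37 CPM in ECs. Col18a1, the endostatin precursor gene, was higher in ECs (75.6 and 2316 CPM), and Col15a1, its relative, in osteoblasts (8.59 and 0.394 CPM). Lama5, an endothelial laminin chain, was at 0.334 and 421 CPM, while Lama4, the other endothelial α chain, was at 208 and 129 CPM and was not called. Hspg2, the perlecan gene, was at 414 and 730.5 CPM, not called, with 491, 229, and 522 CPM in the 3 control libraries. The value of control replicate 2 was the low one.

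Fiber and bone matrix genes were mostly higher in osteoblasts. Of 28 small leucine-rich proteoglycans and fiber genes tested, 18 were higher in osteoblasts and 2 in ECs, with a median log2 fold change of -5.02. Fmod, Dcn, Ogn, and Aspn, proteoglycans that bind collagen, were at 4101, 257, 719, and 564 CPM in osteoblasts and at or under 4.56 CPM in ECs. Eln, the elastin gene, was the reverse, at 0.153, 0.105, and 0.103 CPM in osteoblasts and 23.02, 21.6, and 22.1 CPM in ECs, and Ltbp2 was at 0.415 and 15.03 CPM. Fn1 and Thbs1, the fibronectin and thrombospondin 1 genes, were abundant in both groups. Fn1 was at 4673, 2574, and 4487 CPM in osteoblasts and 8875, 9331, and 10144 CPM in ECs and Thbs1 at 2064 and 5203 CPM, with log2 fold changes of 1.27 and 1.33, under the threshold. Thbs2, the related gene, was at 1034 and 1.24 CPM and was called higher in osteoblasts. Postn, the periostin gene, was at 1749.6 and 2.99 CPM.

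Of 20 bone matrix genes tested (26 listed), 11 were higher in osteoblasts and 1 in ECs. Ibsp, the bone sialoprotein gene (chromosome 5, 104299171 to 104311469), had 159, 141, and 143 CPM in osteoblasts and 1, 3, and 3 counts in the 3 EC libraries. Mgp, the matrix Gla protein gene, an inhibitor of mineralization that vessels and cartilage also make, was at 580.1, 583, and 573 CPM in osteoblasts and 0.242, 0.904, and 0.515 CPM in ECs. Alpl, the alkaline phosphatase gene, was at 33.1 and 1.64 CPM and Spp1, the osteopontin gene, at 205 and 25.7 CPM. Bglap and Bglap2, near-identical osteocalcin copies whose counts are uncertain, were at 4.2 and 4.14 CPM in osteoblasts and at or under 0.0171 CPM in ECs. The osteocyte genes Dmp1, Mepe, and Fgf23 were at most at 0.18 CPM in either group, and Sost, the sclerostin gene, had 0 counts in the osteoblasts and 1.41 ± 0.139 CPM in the ECs (SD, n = 3), at least 20.97-fold higher. The phosphate transporters Slc20a1 and Slc20a2 and the mineralization regulator Ank were not called.

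Of 24 enzyme genes of collagen processing and cross-linking tested, 9 were higher in osteoblasts, 2 in ECs, and 13 were not called. The lysyl oxidase genes, which cross-link collagen and elastin, were called in both directions or not at all. Lox was at 1339.9, 1262, and 1232 CPM in osteoblasts and 0.639, 0.933, and 0.94 CPM in ECs, for a log2 fold change estimated at -10.59 ± 0.0985 (SE) and an adjusted p of 1.67e-15 (edgeR quasi-likelihood test, Benjamini-Hochberg). Loxl1 was also higher in osteoblasts (41.3 and 0.623 CPM), Loxl2, which cross-links collagen IV, was higher in ECs (0.44 and 24.9 CPM), and Loxl3 and Loxl4 were not called. Serpinh1, the collagen chaperone gene, was at 2985 and 649 CPM with a log2 fold change of -2.20, near the threshold. Few genes of the general secretory pathway were called. Of 25 genes tested, 2, Creb3l1 and Kdelr3, were higher in osteoblasts and 0 in ECs, with a median log2 fold change of -0.28. Creb3l1, a membrane-bound transcription factor that induces type I collagen in bone, was at 555 and 3.71 CPM. Among proteases, Mmp2 and Mmp14 were higher in osteoblasts (1437 and 566 CPM against 8.42 and 41.3 CPM).

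Of 22 contractile genes tested, 9 were higher in osteoblasts and 2 in ECs. Acta2, the smooth muscle actin gene, was at 2822, 2909, and 2787 CPM in osteoblasts and 15.7, 16.7, and 16.7 CPM in ECs. Myl9, Tpm2, and Actg2 were at 248, 111, and 214 CPM in osteoblasts and at or under 0.527 CPM in ECs. The genes of the list higher in ECs, Cnn1 and Myh11, reached only 1.18 and 0.42 CPM there. The log2 fold change of Myh11 was 1.97 without control replicate 1 and 1.80 without EC replicate 3, and it was then not called. Non-muscle Myh9 and Actn4 were at 2303 and 1371 CPM in ECs and 1053 and 484 CPM in osteoblasts, and were not called.

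Several hemostasis genes were higher in ECs. Of 22 hemostasis genes tested, 9 were higher in ECs and 2 in osteoblasts. Vwf, the von Willebrand factor gene, was at 1.13, 1.04, and 1.23 CPM in osteoblasts and 231, 241, and 267 CPM in ECs, for a log2 fold change estimated at 7.78 ± 0.0873 (SE) and an adjusted p of 5.50e-15 (edgeR quasi-likelihood test, Benjamini-Hochberg). Entpd1, which breaks down extracellular ATP, and Procr, the protein C receptor gene, were at 104 and 615 CPM in ECs and 0.0377 and 2.42 CPM in osteoblasts. F3, the tissue factor gene that starts clotting, was higher in osteoblasts, at 28.3, 29.8, and 28.5 CPM against 4.14, 4.14, and 3.74 CPM in ECs. Plat and Tfpi, the tissue plasminogen activator and tissue factor pathway inhibitor genes, were not called (41.6 and 21.6 CPM, and 99.3 and 132 CPM).

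Of 19 vasoactive genes tested (27 listed), 9 were higher in ECs and 3 in osteoblasts. Nos3, the endothelial nitric oxide synthase gene (chromosome 5, 24364810 to 24384474), was at 0.444, 0.439, and 0.582 CPM in osteoblasts and 440.1, 417, and 457 CPM in ECs. Gch1, which supplies its cofactor, and Ass1, which renews its substrate arginine, were at 0.0944 and 16.4 CPM in osteoblasts and at 39.01 and 263 CPM in ECs, while the arginine transporter gene Slc7a2 was higher in osteoblasts (60.9 and 0.0489 CPM). Edn1 and Ace, the endothelin 1 and angiotensin-converting enzyme genes, were at 434 and 173 CPM in ECs and 1.11 and 0.143 CPM in osteoblasts. The endothelin receptors were called in opposite directions. Ednrb was at 29.3, 29.9, and 28.3 CPM in the EC libraries and had 1, 0, and 0 counts in the osteoblast libraries, and Ednra was at 44.9, 41.4, and 42.6 CPM in the osteoblasts and 0.0881, 0.0583, and 0.0671 CPM in the ECs. The prostaglandin genes Ptgs2 and Ptges also differed in opposite directions, with log2 fold changes of 5.43 and -7.81, and Ptgis, the prostacyclin synthase gene, was at 2.32 and 1.93 CPM.

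Secreted factors were called on both sides. Of 55 ligand genes tested, 26 were higher in ECs and 9 in osteoblasts, with a median log2 fold change of 1.81. Cxcl12, a chemokine that retains blood progenitors in bone marrow, was abundant in both groups and higher in ECs, at 219, 239.9, and 215 CPM in osteoblasts and 2933, 2920.1, and 2918 CPM in ECs. Apln, the apelin gene, was at 42.6, 44.03, and 41.6 and 1366, 1377, and 1363 CPM. Pdgfb, which recruits pericytes, was at 2.94 CPM in osteoblasts and 304 CPM in ECs, while Pdgfc was the reverse, at 151 and 3.91 CPM, and Pdgfa was not called. Kitl and Nrg1 were at 232 and 242 CPM in ECs and 4.53 and 4.54 CPM in osteoblasts. Ptn and Fgf7 were higher in osteoblasts, at 659 and 88.8 CPM against 0.497 and 0.405 CPM. Vegfa, the ligand of Kdr, was at 58.2, 61.6, and 59.9 CPM in osteoblasts and 82.5, 79.3, and 79.1 CPM in ECs, a log2 fold change of 0.42.

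Notch signaling passes between neighboring cells and sets arterial fate and sprouting. Of 20 Notch pathway genes tested, 11 were higher in ECs and 2 in osteoblasts, with a median log2 fold change of 3.26 (2.53 with genes under 3 counts in every library of a group set at their bound). Notch1 and Notch4 were the EC receptors (212 and 262 CPM, against 17.8 and 0.399 CPM), and Notch2 and Notch3 were higher in osteoblasts (138 and 20.4 CPM, against 25.05 and 2.97 CPM). The ligands Jag1, Jag2, Dll1, and Dll4 and the targets Hey1, Hes1, and Nrarp were all higher in ECs, with Jag1 at 30.8 and 470.2 CPM. The transducers Rbpj, Maml1, Adam10, and Adam17 were not called.

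Of 41 Wnt pathway genes tested, 21 were higher in osteoblasts and 6 in ECs, with a median log2 fold change of -2.43. The ligands Wnt4, Wnt6, Wnt10a, and Wnt10b were at 29.3, 43.9, 45.8, and 42.05 CPM in osteoblasts and at or under 0.179 CPM in ECs, and Wnt5a was higher in ECs (8.55 and 49.8 CPM). Axin2 and Lef1, which β-catenin induces, were at 25.7, 23.5, and 26.8 CPM and 7.73, 6.36, and 6.72 CPM in osteoblasts and at 0.192 and 0.152 CPM in ECs. The secreted antagonists Sfrp2, Wif1, and Dkk3 were higher in osteoblasts too (172, 53.2, and 296 CPM, against 0.113, 0.0246, and 0.506 CPM in ECs), whereas Frzb had 0 counts there and 6.99 ± 0.241 CPM in ECs, at least 104-fold higher. The frizzled receptors were divided, with Fzd4 and Fzd6 at 312 and 211 CPM in ECs and 7.9 and 3.79 CPM in osteoblasts, and Fzd1 and Fzd5 higher in osteoblasts. Fzd4 is the receptor for norrin in vessels. Ctnnb1, the β-catenin gene, was at 563 and 758 CPM and was not called. Of 35 BMP and TGF-β genes tested, 6 were higher in ECs and 8 in osteoblasts, against 14.0% and 9.76% of all genes tested. The antagonists Chrdl1 and Grem1 were on the osteoblast side (828 and 38.2 CPM, against 0.562 and 0.439 CPM).

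Among the metabolic lists, that of cholesterol and fatty acid synthesis had the largest share of called genes. Of 28 genes of cholesterol and fatty acid synthesis tested, 19 were higher in osteoblasts and 0 in ECs, with a median log2 fold change of -2.61. Hmgcs1, which starts the mevalonate pathway (chromosome 13, 119690379 to 119708260), was at 668, 621, and 600.3 CPM in osteoblasts and 38.4, 39.5, and 37.04 CPM in ECs, for a log2 fold change estimated at -4.04 ± 0.0553 (SE) and an adjusted p of 2.49e-14 (edgeR quasi-likelihood test, Benjamini-Hochberg). Cyp51 was at 538 and 36.3 CPM and Sqle at 325 and 47.04 CPM. The desaturase genes Scd1 and Scd2 were also called. The fatty acid synthesis genes Fasn and Acly were not, at 289.7 and 367 CPM in osteoblasts and 417 and 259 CPM in ECs. The regulator Srebf2 had a log2 fold change of -1.86, under the threshold.

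Of 22 glycolysis genes tested, 3 were higher in osteoblasts and 0 in ECs, with a median log2 fold change of -0.45. Slc2a1, the glucose transporter, was at 36.5, 36.3, and 34.3 CPM in osteoblasts and 36.2, 36.5, and 37.3 CPM in ECs, and Pfkfb3 at 24.1 and 35.1 CPM. The called genes were Pfkfb4, Ldhb, and Eno2. Among 27 genes of fatty acid uptake and oxidation, 7 were higher in ECs and 5 in osteoblasts. Cpt1a, which admits fatty acids to mitochondria, was at 56.4, 52.01, and 54.6 CPM in osteoblasts and 253, 259, and 267 CPM in ECs. The capillary uptake genes Gpihbp1, Lpl, and Fabp4 were called higher in ECs but reached only 1.21, 1.91, and 2.15 CPM there, and Cd36 was at 0.600 CPM and was not called. Of 29 genes of serine and one-carbon metabolism and the amino acid response, 2 were higher in ECs and 4 in osteoblasts. The shares of all genes tested were 14.0% and 9.76%. The 35 mitosis and replication genes were all tested and 35 were not called, with a median log2 fold change of 0.07. Mki67, the Ki-67 gene, was at 225, 162, and 235 CPM in osteoblasts and 362, 378, and 395 CPM in ECs, and Top2a at 318 and 398 CPM, so transcripts of dividing cells were present in both groups.

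The vessel-bed lists show which markers of different vessels the ECs held. Of 17 venous genes tested, 14 were higher in ECs and 0 in osteoblasts, and of 22 arterial genes 14 and 3. Genes of both lists were therefore present together in the EC libraries. Nr2f2, the venous transcription factor, was at 37.5, 33.2, and 32.5 CPM in osteoblasts and 176, 175, and 168 CPM in ECs, and Ephb4, the venous ephrin receptor gene, at 67.8 and 683 CPM. On the arterial side, Gja5, the connexin 40 gene, was at 0.0153, 0.0527, and 0.103 CPM in osteoblasts and 87.2, 85.97, and 88.6 CPM in ECs, and Dll4 at 0.0657 and 12.4 CPM. Efnb2, the arterial partner of Ephb4, was at 40.4, 38.7, and 40.3 and 159, 155, and 156 CPM, with a log2 fold change of 1.98, just under the threshold. Scaled by library size alone it was 2.12 and passed. Bmx was at 12.5 CPM and Hey2 at 0.29 CPM in ECs, and the venous chemokine receptor gene Ackr1 had 0 counts in all 6 libraries.

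Part of the lung lists was at or near 0 in the ECs. Of 16 general capillary genes, 12 could be tested, with 11 higher in ECs. Among them were Cd93, Ptprb, and Plvap, which endothelium of other organs also expresses, at 934, 748, and 1209 CPM in ECs. Members more restricted to capillaries were low, with Gpihbp1 at 0.969, 1.37, and 1.28 CPM, Kit at 0.573, 0.933, and 0.918 CPM, and Aplnr, the apelin receptor gene, at 0.0661, 0.146, and 0.112 CPM in the 3 EC libraries. Of 18 aerocyte genes, 13 were tested, 6 were higher in ECs and 2 in osteoblasts. Ednrb, Apln, and Kdr were present as given above, and Tbx2 was at 9.78 CPM in osteoblasts and 12.6 CPM in ECs, not called. Car4, the carbonic anhydrase gene of aerocytes, had 0 counts in all 6 libraries, and Emp2 was at 421, 436, and 424 CPM in osteoblasts and 0.815, 1.02, and 0.739 CPM in ECs. Of 18 genes enriched in lung endothelium, 13 could be tested, with 2 higher in osteoblasts and 7 in ECs, among them Ace, Calcrl, Cldn5, and Clec1a (173, 232, 102, and 14.5 CPM in ECs). Hpgd and Scn7a had 0 counts in all 6 libraries, like Car4, and Tmem100 was at 25.4, 24.9, and 23.6 CPM in the osteoblasts and had 1, 2, and 2 counts in the ECs. With 0 counts, a level of up to 3 counts per library, or 0.0661 to 0.0875 CPM, is allowed in the ECs. The lung label was thus met by a part of its markers only, and the cells are called pulmonary here by that label.

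Genes of other vessel beds were present in part as well. Of 18 lymphatic genes, 10 were tested, with 4 higher in ECs and 4 in osteoblasts. Flt4 and Lyve1 were high in ECs (82.5, 84.7, and 86.1 CPM for Lyve1), but Prox1, the lymphatic master regulator, was at 0.0148 CPM, Ccl21a had 0 counts in all 6 libraries, and Pdpn was higher in osteoblasts (94.5 and 0.11 CPM). Of 16 liver sinusoid genes, 8 could be tested, with 6 higher in ECs and 2 in osteoblasts. Gata4, a sinusoidal factor, was at 0, 0, and 0.0343 CPM in osteoblasts and 9.69, 8.11, and 10.05 CPM in ECs, and Stab1, a scavenger receptor gene, at 3.76 and 613 CPM, while Stab2 was at 4.7, Clec4g at 0.0171, and Mrc1 at 0.108 CPM in ECs. Of 18 brain genes, 10 were tested, 4 (Itm2a, Ocln, Apcdd1, and Abcb1a) being higher in ECs and 3 (Foxf2, Lef1, and Spock2) in osteoblasts. Apcdd1, a Wnt antagonist, was at 1.92 and 18.03 CPM, the transporter genes Abcg2 and Slc7a5 were expressed in both groups and not called, and Mfsd2a, Slco1c1, and Slco1a4 had 0 counts in the ECs. Of 15 heart and muscle capillary genes, the 6 called members were at or under 2.15 CPM in ECs. Of 15 tip cell genes tested, which mark sprouting vessels, 9 were higher in ECs and 3 in osteoblasts, with Esm1 at 0.245, 0.158, and 0.171 CPM in osteoblasts and 178, 179, and 174 CPM in ECs and Angpt2 at 6.46 CPM.

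**Figure D5:**
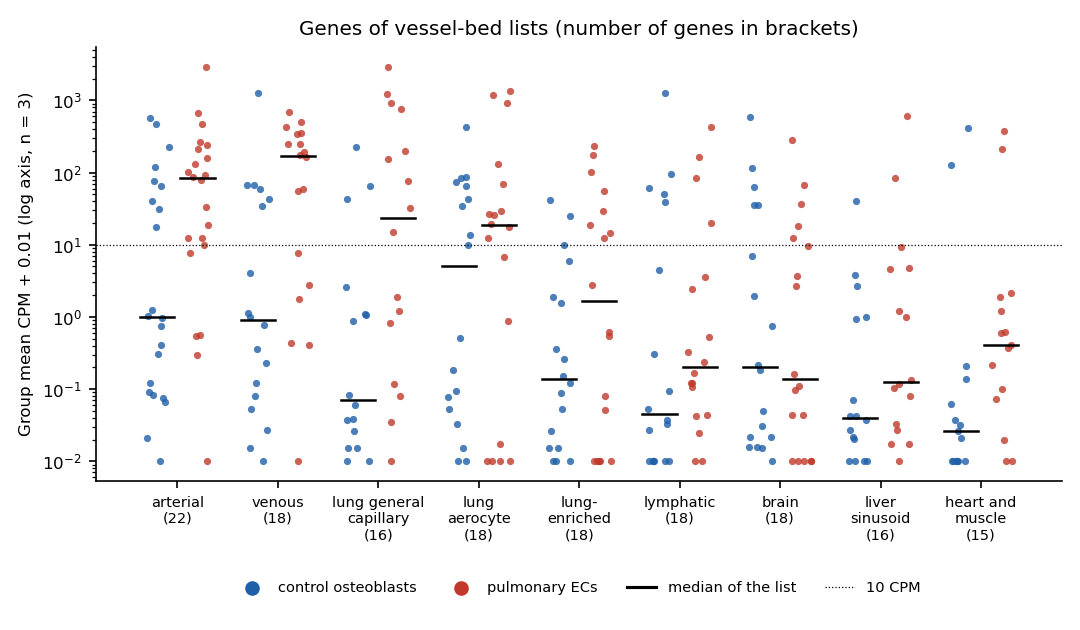
Group mean CPM + 0.01 (log axis, n = 3) of every gene in 9 vessel-bed lists, blue for control osteoblasts and red for pulmonary ECs, with the number of genes in brackets. The black bar is the median of the list and the dotted line stands at 10 CPM, which 16 of 22 arterial and 12 of 18 venous genes passed in ECs, as did 9 of 16 general capillary, 11 of 18 aerocyte, 8 of 18 lung-enriched, 4 of 18 lymphatic, 5 of 18 brain, 2 of 16 liver sinusoid, and 2 of 15 heart and muscle genes.

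Immune and early response genes were also compared. Of 34 MHC class I and interferon-response genes tested, 11 were higher in ECs and 2 in osteoblasts, with a median log2 fold change of 0.23. Bst2 was at 1.81 and 141 CPM in osteoblasts and ECs and Ly6a, the Sca-1 gene, at 41.8 and 521 CPM, whereas B2m and H2-K1 were not called. Ly6 and H2 genes belong to families of close copies, so their counts are uncertain. Of 19 immediate early genes, which are transcribed within minutes of a stimulus, 6 were higher in ECs and 2 in osteoblasts, against 14.0% and 9.76% of all genes tested. Dusp1 was at 4.42, 4.9, and 4.18 CPM in osteoblasts and 186, 173, and 181 CPM in ECs and Egr1 at 23.3 and 178 CPM. Y-linked Ddx3y, Eif2s3y, Kdm5d, and Uty were expressed in both groups and not called, and Xist was at 0.0263 and 0.0446 CPM.

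The genes with the largest log2 fold changes among those with at least 10 CPM in the higher group and no overlap of libraries, 841 on the EC side and 749 on the osteoblast side, had nearly no counts in the other group, which this ranking favors. The 10 with the largest log2 fold changes toward ECs were Gimap5, Mageh1, Rassf9, Atp8a1, Zfp366, Tfec, Htr2a, Sulf1, Gm4610, and B3galt1. Gimap5, a GTPase gene of lymphocytes and ECs, had 0 counts in the 3 control libraries and 26.8, 24.2, and 25.6 CPM in the ECs, at least 381-fold higher against a floor of 3 counts per library. Zfp366 and Htr2a, the serotonin 2A receptor gene, likewise had 0 counts in the osteoblasts and were at least 237-fold and 225-fold higher. Tfec, a factor related to Mitf, had 0, 1, and 0 counts in the osteoblasts and 53.3, 51.4, and 54.3 CPM in the ECs, a ratio of 8051-fold (95% counting interval 1444 to 318040.0). Sulf1, which edits heparan sulfate, was at 83.6, 84.4, and 85.6 CPM in the ECs and had 0, 2, and 0 counts in the osteoblasts, a ratio of 6404-fold (95% counting interval 1772 to 52885).

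The 10 with the largest log2 fold changes toward osteoblasts were Kcnt2, Glrb, ENSMUSG00000091089.1, Gfra2, Hapln1, Pappa, Ibsp, Igfbp2, Epb41l3, and Irx2. This order depends on the added count too. Trps1 and Wif1, not among the 10, were at least 1152-fold and 723-fold higher in osteoblasts against the floor. Kcnt2, a potassium channel gene, was at 19.7, 15.2, and 15.2 CPM in the osteoblasts and 0 counts in the ECs, at least 227-fold higher. Hapln1, which anchors aggrecan to hyaluronan, was at 53.4, 53.04, and 48.6 CPM with 0, 1, and 1 counts in the ECs, a ratio of 3254-fold (95% counting interval 900.5 to 26872). Epb41l3 was at 201, 182, and 197 CPM in the osteoblasts and 0.0881, 0.0875, and 0.0895 CPM in the ECs. Under 3 counts in every library of the other group, with at least 10 CPM in their own, stood 79 genes on the EC side and 43 on the osteoblast side.

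A stretch of chromosome 4 held neighboring genes that were at or near 0 in the osteoblasts and expressed in the ECs. It was singled out after its values were seen. Mtap, an enzyme gene of methionine salvage that most cells express (chromosome 4, 89137122 to 89181081 on GRCm38), had 2, 3, and 0 counts in the 3 osteoblast libraries and 109, 114, and 109 CPM in the ECs, for a log2 fold change estimated at 11.60 ± 0.12 (SE) and an adjusted p of 4.13e-15 (edgeR quasi-likelihood test, Benjamini-Hochberg). Its SE is too small, with so few counts in the osteoblasts. Its neighbor Cdkn2a, which encodes a cell cycle kinase inhibitor and the ARF protein (chromosome 4, 89274471 to 89294653), had 0, 1, and 0 counts in the osteoblasts and 26.7, 25.7, and 26.4 CPM in the ECs, a ratio of 3986-fold (95% counting interval 715 to 157480.0). Cdkn2b, the next gene and also a kinase inhibitor (chromosome 4, 89306299 to 89311039), had 1, 0, and 0 counts in the osteoblasts and 38.9, 39.9, and 38.9 CPM in the ECs. Ifne, on the other side of Mtap, had 0 counts in the osteoblasts and 0.956 CPM in the ECs, at least 14.2-fold higher. The other 29 interferon genes of the stretch reached at most 0.0672 CPM on average in either group. Klhl9, which lies among them (chromosome 4, 88718292 to 88722465), was at 105, 104, and 101 CPM in the osteoblasts and 70.8, 73.1, and 65.96 CPM in the ECs and was not called. Hacd4 and Focad, before them, were at 40.5 and 23.05 CPM in osteoblasts and 62.5 and 35.8 CPM in ECs, also not called. Past Cdkn2b, Dmrta1 and Elavl2 were at or under 0.027 CPM in both groups, so the far end of the stretch is not marked by an expressed gene. Cdkn1a, an inhibitor gene on another chromosome, was at 387 CPM in osteoblasts and 528 CPM in ECs and was not called.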

How the data were processed

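Total RNA of the 3 MC3T3-E1 control and 3 pulmonary EC samples was made into libraries with the KAPA DNA HyperPrep kit, and sequenced on an Illumina HiSeq instrument according to the labels. The authors deposited raw read counts per gene, and the submitters' processing notes name STAR 2.5.3a and the GRCm38 build. The annotation release and the strand setting are not given in the sources used here, so antisense and overlapping genes cannot be told apart from these counts. Counts split between near-identical copies are uncertain. Of 50686 gene identifiers, 50462 were found in GENCODE M21, which gave positions, and 45823 had the same version there.

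Counts of the 6 libraries were fitted alone with edgeR 4.0.16 in R 4.3.3 (filterByExpr, TMM, quasi-likelihood F test, Benjamini-Hochberg adjustment over 15342 genes), with calls at the thresholds of the study. The common biological coefficient of variation was 0.0556. The standard error of a log2 fold change was its size over the square root of F, which understates counting error where a group has few counts. CPM used TMM-scaled library sizes. Per-kilobase values used the union of exons. Floors and Poisson counting intervals (95%) cover counting error only. Alternatives used DESeq2 1.42.0, limma 3.58.1, other normalizations, filters, and thresholds, the replicate number as a block, all 9 libraries, and each library left out. The groups came from the sample titles. The genes named in the text were members of 47 gene lists and 35 families, plus the 10 genes of each direction with the largest log2 fold change among called genes at 10 CPM or more whose libraries did not overlap. The lists, families, and comparison were chosen with earlier results of these data known, and a few genes named as such were chosen after their values were seen. Promoter sequences came from RefSeq. Some members of the lists are not reported here.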

Additional observations from a re-analysis of the deposited data

How the results depend on the processing

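Counts of genes higher in ECs and in osteoblasts were 2102 and 1533 with all 9 libraries in the fit, 2163 and 1488 with DESeq2, 2145 and 1490 with limma-voom, 1771 and 1264 with glmTreat, and 3338 and 2699 where a log2 fold change of 1 sufficed. Scaling by library size alone moved the median log2 fold change of all genes by 0.14 and gave 2244 and 1422. With 1 library left out they ran from 2197 to 2338 and from 1502 to 1563. The expression filter was rerun in each of those fits, so the genes tested can differ. Same-numbered libraries had correlations of deviations from their group means of -0.03, -0.03, and 0.02. With 3 libraries per group these cannot exclude that such libraries were handled together. A replicate block gave 2143 and 1495. Of 565 called named genes, 0 reversed, 5 lost the call without 1 library (Ager and Myh11 without EC replicate 3, Ets1, Hbegf, and Myh11 without control replicate 1, Rps20 without control replicate 2), 2 with DESeq2, limma-voom, or the block, 11 under another normalization, and 40 with glmTreat. For the lists, the following counts moved. With the lower threshold of 1, osteoblast calls became 15 for collagen enzymes, 6 for glycolysis, 12 for serine and one-carbon genes, 2 for venous genes, 6 for MHC and interferon genes, 1 for mitosis genes, 1 for blood cell markers, and 2 for osteocyte markers, and EC calls 1 for glycolysis, 1 for mitosis, 11 for immediate early, and 5 for contractile genes. With glmTreat, EC calls became 0 for contractile genes, 0 for pericyte and smooth muscle markers, and 0 for lung epithelial markers, and osteoblast calls 1 each for aerocyte, MHC and interferon, immediate early, and lung epithelial genes. With library size alone, osteoblast calls became 2 for serine and one-carbon genes and 1 for aerocyte genes. EC calls for contractile genes and for pericyte and smooth muscle markers became 1 with limma-voom and with the replicate block and ran from 1 to 2 with 1 library left out (1 without control replicate 1 or EC replicate 3). Lung epithelial markers higher in ECs ran from 0 to 1 (0 without EC replicate 3), and those higher in osteoblasts became 1 where 10 counts were required in every library of a group. The cause was not tested. Values near 3 counts per library, such as those of lung epithelial and aerocyte markers at 0, are limited by depth.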

Other observations

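Gene families, and sets chosen by theme, are given beside the 14.0% of all genes tested that were called higher in ECs and the 9.76% higher in osteoblasts. Of 233 solute carrier genes tested, 35 were higher in ECs and 29 in osteoblasts, with a median log2 fold change of 0.01, shares near those of all genes. Of 27 semaphorin, plexin, and neuropilin genes, 8 were higher in ECs and 7 in osteoblasts. Another set held homeobox genes of craniofacial and limb mesenchyme outside the Hox, Dlx, and Msx genes. Of its 38 genes tested, 6 were higher in ECs and 22 in osteoblasts. It was chosen for mesenchyme and does not stand for all other homeobox genes. Of 8 syndecans and glypicans, 1 was higher in ECs and 5 in osteoblasts. Of 15 genes of arginine and nitric oxide metabolism, 4 were higher in ECs and 1 in osteoblasts. Col13a1, a transmembrane collagen, was at 0.153, 0.176, and 0.137 CPM in osteoblasts and 258, 259, and 266 CPM in ECs, the reverse of the fibrillar collagens.

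Genes of the translation and respiration machinery were rarely called. Of 83 cytosolic ribosomal protein genes tested, 1 was higher in ECs and 3 in osteoblasts, but their median log2 fold change was -1.01, below that of all genes, and copies make single members uncertain. Of 46 NADH dehydrogenase subunit genes, 0 were higher in ECs and 1 in osteoblasts. The mitochondrially encoded genes held between 0.304% and 0.484% of the counts in the osteoblast libraries and between 0.711% and 0.814% in the EC libraries, ranges that did not overlap, and 0 of them were called.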
